A study of Homo sapiens with 9 samples.

Results

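The 10 genes described here are members of the bone morphogenetic protein (BMP) pathway, namely the ligand genes *BMP2*, *BMP4*, *BMP5* and *BMP7*, the receptor gene *BMPR1B*, the inhibitory gene *SMAD6* and the inhibitor of differentiation genes *ID1*, *ID2*, *ID3* and *ID4*. They were chosen by name and found by matching gene identifiers to symbols, and they were 10 of the 60708 genes counted. RNA was sequenced in 9 libraries, with 3 libraries each labelled WT, CS16 and CS19. The study describes all of them as untreated MDA-MB-231, a human triple-negative breast cancer cell line. WT stands for the unedited line, and CS16 and CS19 are clones, each grown from a single cell, that carry the genotype label SNAI1-KO. *SNAI1* encodes SNAIL1, a zinc finger repressor that drives epithelial-mesenchymal transition. For the clones, plasmids with guide RNAs against exon 1, exon 2 and the border of exon 2 with its intron were transfected with Cas9 and a repair template, followed by puromycin selection. Each clone is thus a separate line of cells, and the WT libraries are not described as having gone through selection or cloning. No library was treated, and all 9 came from cells cultured in the same medium.

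BMPs are secreted ligands of the TGFβ family. They bind pairs of type I and type II serine/threonine kinase receptors, which phosphorylate SMAD1, SMAD5 and SMAD9, and these enter the nucleus with SMAD4 and bind DNA. The ID genes are classical direct targets of this pathway. ID proteins hold a helix-loop-helix domain without a DNA-binding region and pair with E proteins such as TCF3, TCF4 and TCF12, so that these no longer bind E-box DNA. SMAD6 is both a target and a feedback inhibitor. In the breast, ID1 and ID3 have been linked to metastatic outgrowth of triple-negative cells, and ID4 to basal-like tumours and mammary stem cells.

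Several measurements of the whole series stand beside every result below. The libraries held 19527195 to 28627777 counted read pairs. Counts are given as CPM, counts scaled to library size after TMM normalization, and levels of different genes are compared as TPM, which also divides by exon length. A gene was taken to be at the floor in a group when no library of the group had more than 3 counts. *SNAI1* was not lower in the clones. It had 0.791, 2.17 and 1.08 CPM in WT, 1.28, 1.91 and 1.95 CPM in CS16 and 2.60, 4.08 and 3.08 CPM in CS19, and its log2 fold change between all SNAI1-KO libraries and WT was 0.89 ± 0.42 (SE, adjusted p = 0.084). The counts cover whole genes and do not show whether the coding sequence was cut, and the study's own checks of the clones by RT-qPCR, immunoblot and read alignment were not analysed here. The directions below follow the labels, and CS16, CS19 and "the clones" always stand for the libraries so labelled. Of 12 genes marking MDA-MB-231 as a basal B line, 11 were lower in the libraries labelled SNAI1-KO, and their summed level was 10742 to 14390 CPM in WT, 571 to 592 CPM in CS16 and 535 to 574 CPM in CS19. *CD44* and *S100A6* were at the floor in both clones. *CDKN2A*, *CDKN2B* and *MTAP*, neighbours in a stretch of chromosome 9p that MDA-MB-231 is known to have lost, had 0 counts in every WT library and at least 1106, 235 and 2139 counts in every library of the clones. Summed mammary luminal markers were 1565 to 2257 CPM in WT and 229 to 273 CPM in the clones, with 1 called higher and 6 called lower of 8 tested. Of 7 embryonic kidney markers tested 3 were higher and 1 was lower, with sums of 64.0 to 93.8 CPM in WT and 135 to 155 CPM in the clones. Fibroblast markers were split at 2 higher and 2 lower of 6, with sums of 58.5 to 128 CPM in WT, 64.1 to 68.1 CPM in CS16 and 12.9 to 15.8 CPM in CS19, haematopoietic markers at 1 and 1 of 2, and 2 of 2 endothelial markers were lower. The edit, the clone and the origin of the cells cannot be told apart in this design, and the part of these marker differences in the results was not tested. WT-2 stood apart from the other WT libraries, since chi-square divided by its degrees of freedom was 188 against WT-1 and 230 against WT-3, whereas WT-1 against WT-3 gave 14.6. Each comparison with WT was therefore also made without WT-2. The labels do not say whether replicates were separate cultures, so p-values measure the spread between these libraries only.

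The sequences just before the start of the 4 ID genes are shown because these genes belong to a single family and moved in different directions and by very different amounts in the clones. They are the 250 bases before the RefSeq start, 5′ to 3′ on the strand of the gene, on GRCh38.p14. Capitals mark CAGAC, the short SMAD-binding element, and the E-box CANNTG, each searched on both strands. The positions are chr20:31605039-31605288 (plus strand) for *ID1*, chr2:8681806-8682055 (plus strand) for *ID2*, chr1:23559502-23559751 (minus strand) for *ID3* and chr6:19837120-19837369 (plus strand) for *ID4*.
ID1: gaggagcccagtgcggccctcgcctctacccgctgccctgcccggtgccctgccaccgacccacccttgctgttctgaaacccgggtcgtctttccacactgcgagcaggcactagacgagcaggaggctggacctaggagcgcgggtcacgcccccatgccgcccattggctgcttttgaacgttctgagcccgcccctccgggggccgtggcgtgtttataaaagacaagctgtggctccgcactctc
ID2: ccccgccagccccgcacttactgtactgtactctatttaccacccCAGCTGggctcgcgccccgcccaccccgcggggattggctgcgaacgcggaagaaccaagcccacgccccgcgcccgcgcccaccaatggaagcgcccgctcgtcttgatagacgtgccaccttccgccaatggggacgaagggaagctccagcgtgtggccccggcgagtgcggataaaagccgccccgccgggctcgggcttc
ID3: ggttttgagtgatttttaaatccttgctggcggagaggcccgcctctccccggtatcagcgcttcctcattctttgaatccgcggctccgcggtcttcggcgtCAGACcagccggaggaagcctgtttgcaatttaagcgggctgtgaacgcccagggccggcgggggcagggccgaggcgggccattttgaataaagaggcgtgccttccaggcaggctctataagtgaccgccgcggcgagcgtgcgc
ID4: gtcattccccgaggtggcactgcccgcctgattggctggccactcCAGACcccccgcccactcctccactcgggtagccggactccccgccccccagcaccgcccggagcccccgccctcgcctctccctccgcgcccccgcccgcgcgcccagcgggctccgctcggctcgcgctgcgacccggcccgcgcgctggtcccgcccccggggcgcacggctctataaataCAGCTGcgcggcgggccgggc
In these windows *ID2* held an E-box 205 bases before the start and *ID4* held an E-box 21 bases before it, both reading CAGCTG. The short SMAD element was found 205 bases before the start of *ID4* and 147 bases before that of *ID3*, and *ID1* held neither motif. Sequence farther upstream was not searched, so these windows do not show whether a gene has such sites elsewhere. Over 35116 RefSeq promoters of the same length, 61.8% held an E-box of any kind and 13345 held CAGAC on either strand. The E-box form CAGGTG, which SNAIL1 is known to bind and which is a subset of CANNTG, was in 17.5% of promoters, and the GC-rich SMAD element GGCGCC was in 16.4%. Neither was in any of the 4 windows. All 4 ID windows were rich in CpG, with 19 in *ID1*, 29 in *ID2*, 24 in *ID3* and 34 in *ID4* against a median of 11 over all promoters, and GC content lay between 62.0% in *ID3* and 78.8% in *ID4* against a median of 58.0%. RefSeq sequences matched 8 of the 10 genes, and *BMP2* and *BMP7* were without one.

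The comparison of the libraries labelled SNAI1-KO with WT asks which of the 10 genes differed in the clones. It took the 6 SNAI1-KO libraries as replicates, although they come from 2 clones, so its p-values do not extend to clones in general. Of the 10 genes, 7 were called, meaning that the log2 fold change was 2 or more, up or down, and that p was under 0.05 after Benjamini-Hochberg adjustment in edgeR's quasi-likelihood test over 19631 genes. *BMP5*, *BMP7*, *BMPR1B*, *SMAD6*, *ID2* and *ID4* were higher and *BMP4* was lower. Among all genes tested 12.6% were called higher and 14.3% lower. By the adjusted p alone 7 of the 10 rose and 2 fell, against 31.1% and 32.6% of all genes, with *ID3* among those that rose and *ID1* among those that fell. Without WT-2 the same 7 genes were called. *BMP2* was the gene that passed neither test over both clones, and it was below the WT range in CS19 alone. As these were bulk samples, fewer cells of a type and less RNA per cell cannot be told apart.

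**Figure D1:**
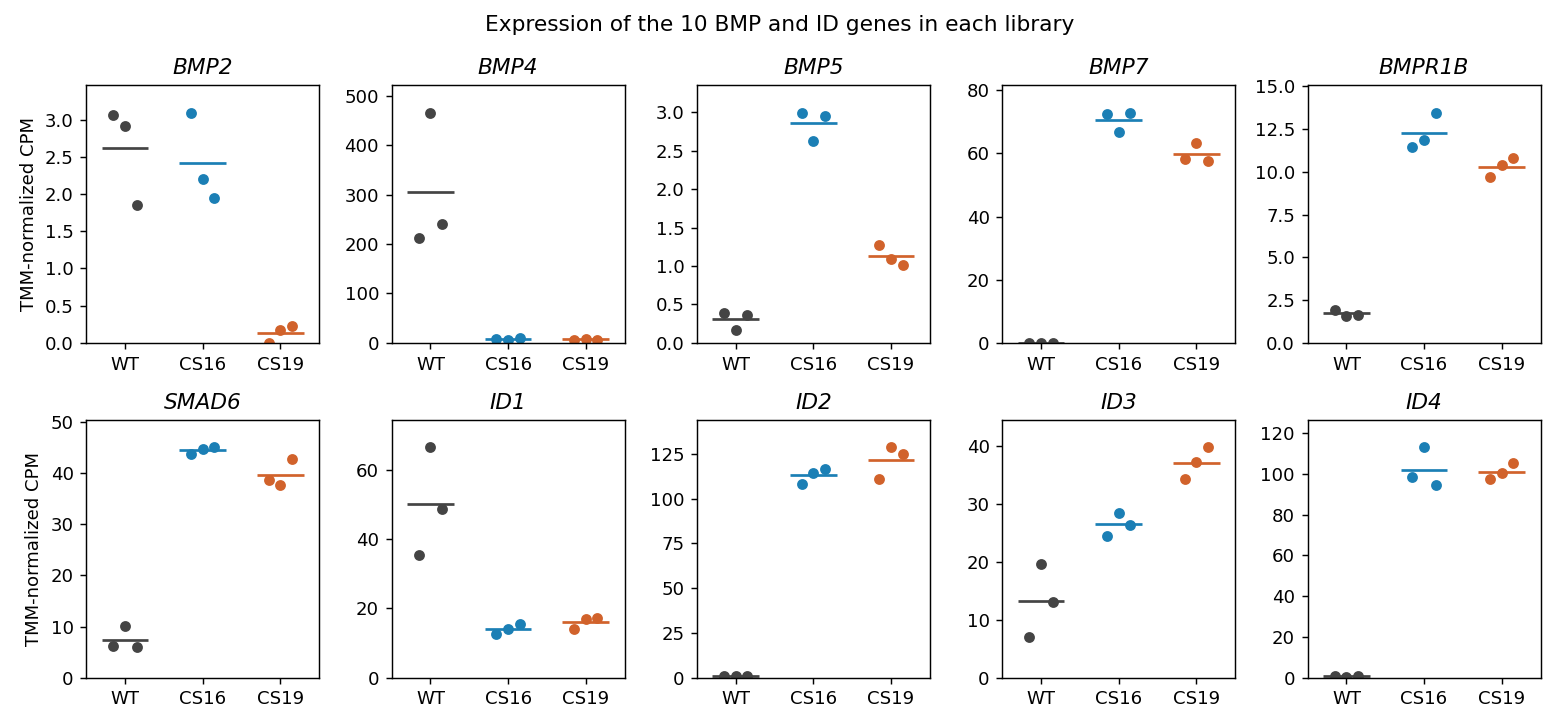
Expression of each of the 10 genes in each library, in TMM-normalized CPM on linear axes that start at 0. Points are libraries and bars are group means (n = 3). *BMP4* and *ID1* are higher in WT, *BMP7*, *ID2* and *ID4* are near 0 in WT and high in both clones, and *BMP2* is below the WT range in CS19 alone.

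*BMP4*, a ligand with broad roles in mesoderm, epithelia and the mammary gland, lies at chr14:53949736-53958761 on the minus strand and had the highest TPM of the ligand genes in WT. It had 212, 466 and 240 CPM in WT-1, WT-2 and WT-3, against 8.20, 6.31 and 8.97 CPM in CS16 and 6.78, 7.77 and 6.69 CPM in CS19. Every library of the clones was below every WT library, and WT-2 was the highest. The log2 fold change was -5.36 ± 0.24 (SE, adjusted p = 6.3e-09) over both clones, and -4.93 without WT-2. Against WT it was -5.26 ± 0.39 for CS16 (adjusted p = 3.7e-05) and -5.39 ± 0.38 for CS19 (adjusted p = 2.4e-05). Of its 3096 exon bases, 506 (16.3%) are shared with ENSG00000287156, a gene on the opposite strand. The libraries were stranded but strand was not used in the counting, so reads of the pair cannot be told apart there. That gene had 265 to 343 counts in WT and 1 to 4 counts in the clones, so it was lower in the same libraries.

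*BMP7*, a ligand known for its role in kidney and skeletal development, lies at chr20:57168753-57266641 on the minus strand and was without reads in WT and had the highest TPM of the ligand genes in both clones. It had 0 counts in each of the 3 WT libraries, 1477, 1395 and 1831 counts in CS16 and 1277, 1459 and 1758 counts in CS19. In CPM this was 72.5, 66.7 and 73.0 in CS16 and 58.1, 63.4 and 57.6 in CS19. The groups did not overlap. Set against a floor of 3 counts in each WT library, *BMP7* was at least 413-fold higher over both clones, at least 447-fold in CS16 and at least 378-fold in CS19 (adjusted p = 2.9e-09, 1.1e-05 and 9.9e-06). Because the WT libraries were at 0, no exact fold can be given.

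*BMP5* and *BMP2* had under 4 CPM in every library. *BMP5*, a ligand related to *BMP7* and located at chr6:55753653-55875590 on the minus strand, had 8, 3 and 7 counts in WT, 61, 55 and 74 in CS16 and 28, 25 and 31 in CS19, without overlap between any of the 3 groups. Its log2 fold change was 2.64 ± 0.53 (SE, adjusted p = 0.0011) over both clones, 3.20 ± 0.36 in CS16 (adjusted p = 0.00025) and 1.86 ± 0.38 in CS19 (adjusted p = 0.0047), so that CS19 passed the adjusted p but not the fold-change limit. Without WT-1 the value in CS19 was 2.06 and was called. *BMP2*, the closest relative of *BMP4* and located at chr20:6767686-6780246 on the plus strand, had 62, 51 and 36 counts in WT, 63, 46 and 49 in CS16 and 0, 4 and 7 in CS19. WT and CS16 overlapped, and their log2 fold change was -0.09 ± 0.33 (adjusted p = 0.83). CS19 was below both, at -4.11 ± 0.65 against WT (adjusted p = 0.0013). Over both clones the value was -1.05 ± 0.89 (adjusted p = 0.32), whereas a shared fit of the 3 groups gave -2.13 with an adjusted p of 0.00101 and called it.

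Per exon length the leading ligand gene differed between WT and the clones. In WT, *BMP4* made up 99.1% ± 0.42 (SD, n = 3) of the TPM summed over the 4 ligand genes, *BMP2* 0.819% and *BMP5* 0.0960%. In CS16, *BMP7* made up 76.9% ± 1.59, *BMP4* 14.8%, *BMP5* 4.24% and *BMP2* 4.01%. In CS19, *BMP7* made up 80.9% ± 0.326, *BMP4* 16.8%, *BMP5* 2.09% and *BMP2* 0.277%. The sum was 215 to 520 TPM in WT, 42.5 to 62.2 TPM in CS16 and 35.5 to 47.8 TPM in CS19. Both clones were thus below every WT library in the sum, while the ranges of the 2 clones overlapped. These shares depend on which ligands are counted. Over all 14 ligand genes of the wider list below, *BMP4* made up 93.4% ± 1.60 in WT, and *BMP7* made up 46.9% ± 0.428 in CS16 and 39.1% ± 0.637 in CS19, where *GDF7* followed with 20.2%. The sum over the 14 genes was 230 to 542 TPM in WT, 70.7 to 101.4 TPM in CS16 and 73.4 to 96.8 TPM in CS19.

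The type I receptor gene *BMPR1B*, at chr4:94757955-95158448 on the plus strand, was higher in both clones. It had 1.93, 1.60 and 1.65 CPM in WT, 11.4, 11.9 and 13.5 CPM in CS16 and 9.70, 10.4 and 10.8 CPM in CS19, with a gap between WT and the clones several times wider than the spread within any group. The log2 fold change was 2.704 ± 0.20 over both clones (SE, adjusted p = 3.6e-07), 2.85 ± 0.23 in CS16 (adjusted p = 4.9e-05) and 2.61 ± 0.23 in CS19 (adjusted p = 6.3e-05). *SMAD6*, at chr15:66702236-66782849 on the plus strand, had 6.13, 10.1 and 5.91 CPM in WT, 43.7, 44.8 and 45.0 CPM in CS16 and 38.6, 37.6 and 42.7 CPM in CS19. The WT library with the most was WT-2, and no library of the clones came near the WT range. *SMAD6* rose by 2.51 ± 0.21 on the log2 scale over both clones (adjusted p = 9.3e-07), and by 2.80 without WT-2. Its values for the clones were 2.62 ± 0.26 (CS16, adjusted p = 0.00015) and 2.46 ± 0.27 (CS19, adjusted p = 0.00019).

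The ID genes did not move as a family. *ID2* and *ID4*, low in WT, rose by more than any other of the 10 genes except *BMP7*, for which there is only a bound, while *ID3* rose less and *ID1* fell. *ID2*, at chr2:8678845-8684461 on the plus strand, had 0.890, 0.858 and 0.977 CPM in WT, 108, 114.5 and 116.8 CPM in CS16 and 111.1, 129 and 125 CPM in CS19. Its log2 fold change was 7.003 ± 0.18 (SE, adjusted p = 2.2e-10) over both clones. Single clones gave 6.98 ± 0.21 (CS16, adjusted p = 4.2e-06) and 7.09 ± 0.22 (CS19, adjusted p = 3.6e-06). *ID2* shares 145 of its 2213 exon bases (6.55%) with *ID2-AS1* on the opposite strand, which had 0 or 1 count in WT and 15 to 32 counts in the clones, against at least 2205 counts of *ID2* there. *ID4*, at chr6:19837370-19842197 on the plus strand, had 0.741, 0.400 and 0.668 CPM in WT, 98.6, 113.1 and 94.6 CPM in CS16 and 97.7, 101 and 105 CPM in CS19. The log2 fold change was 7.37 ± 0.23 (adjusted p = 6.6e-10) over both clones, with 7.41 ± 0.29 in CS16 (adjusted p = 4.8e-06) and 7.40 ± 0.28 in CS19 (adjusted p = 3.6e-06). For *ID2* and *ID4* no library of the clones overlapped WT, and the WT values rest on 15 to 19 and 7 to 15 counts per library.

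*ID1* and *ID3*, the pair with the higher levels in WT, changed in opposite directions. *ID1*, at chr20:31605283-31606515 on the plus strand, had 35.3, 66.4 and 48.6 CPM in WT, 12.5, 14.1 and 15.3 CPM in CS16 and 14.0, 17.0 and 17.2 CPM in CS19. All 6 libraries of the clones were below the WT range. *ID1* fell by 1.74 ± 0.19 on the log2 scale (SE, adjusted p = 1.0e-05) over both clones, and did not reach the fold-change limit in CS16 (-1.81 ± 0.27, adjusted p = 0.00091) or CS19 (-1.60 ± 0.27, adjusted p = 0.0016). Without WT-1 it was called in CS16, at -2.02. *ID3*, at chr1:23557926-23559501 on the minus strand, had 6.97, 19.6 and 13.1 CPM in WT, 24.5, 28.5 and 26.5 CPM in CS16 and 34.4, 37.3 and 39.8 CPM in CS19. The WT libraries spread almost as widely among themselves as the gap between the means of WT and CS16, and the 3 groups did not overlap. The log2 fold change was 1.27 ± 0.30 (adjusted p = 0.0029) over both clones and 1.66 without WT-2. In CS16 alone it was 1.04 ± 0.35 (adjusted p = 0.040), and the adjusted p was 0.053 to 0.0984 in the fits without WT-1, WT-3, CS16-1, CS16-2 or CS16-3. In CS19 it was 1.53 ± 0.35 (adjusted p = 0.0080).

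The make-up of the ID family per exon length also differed. *ID1* made up 81.7% ± 2.45 (SD, n = 3) of the summed ID TPM in WT, *ID3* 17.0% ± 2.93, *ID2* 0.889% and *ID4* 0.357%. In CS16, *ID2* made up 48.0% ± 1.42, *ID4* 24.7% ± 1.78, *ID3* 16.6% ± 0.457 and *ID1* 10.6% ± 0.853. CS19 had 46.2% ± 1.02 from *ID2*, 22.0% ± 0.909 from *ID4*, 20.9% ± 0.581 from *ID3* and 10.9% ± 0.523 from *ID1*. The share of *ID3* in CS16 lay within its range in WT. The sum over the family was 161 ± 61.8 TPM in WT, 331 ± 26.3 in CS16 and 360 ± 38.4 in CS19, and the lowest clone library, at 303 TPM, was above the highest WT library, at 232 TPM.

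Ordered by mean TPM, the WT libraries ran from *BMP4* (322 TPM) through *ID1* (131), *ID3* (28.4), *SMAD6* (2.81), *BMP2* (2.42), *ID2* (1.31), *BMPR1B* (0.848), *ID4* (0.497) and *BMP5* (0.247) to *BMP7* at 0. In this order only the neighbours *SMAD6* and *BMP2* overlapped in their ranges. In CS16 the order was *ID2* (159 TPM), *ID4* (81.7), *ID3* (54.8), *BMP7* (40.8), *ID1* (35.1), *SMAD6* (16.2), *BMP4* (7.96), *BMPR1B* (5.81), *BMP5* (2.26) and *BMP2* (2.16). There *BMP7* overlapped *ID1*, *BMP4* overlapped *BMPR1B*, and *BMP5* overlapped *BMP2*. In CS19 it was *ID2* (166 TPM), *ID4* (79.1), *ID3* (75.1), *ID1* (39.4), *BMP7* (33.5), *SMAD6* (14.0), *BMP4* (6.97), *BMPR1B* (4.76), *BMP5* (0.863) and *BMP2* (0.112), with overlaps between *ID4* and *ID3* and between *ID1* and *BMP7*. Thus the most abundant of the 10 genes was a ligand in WT and an ID gene in both clones.

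Against the same WT libraries, which both fits share, 7 of the 10 genes were called in each clone. CS16 had 6 higher and 1 lower, against 11.8% and 15.3% of 18611 genes tested. CS19 had 5 higher and 2 lower, against 12% and 14.4% of 18935 genes. *BMP4*, *BMP7*, *BMPR1B*, *SMAD6*, *ID2* and *ID4* were called in both, *BMP5* in CS16 and *BMP2* in CS19.

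The comparison of CS16 with CS19 asks where the clones differ from each other, and it uses no WT library. Of the 10 genes, *BMP2* was called, higher in CS16, against 0.633% of 17538 genes called higher and 0.496% called lower. Its log2 fold change was 4.005 ± 0.47 (SE, adjusted p = 3.5e-05), on 46 to 63 counts per library in CS16 and 0 to 7 in CS19. Summed fibroblast markers were also higher in CS16, at 64.1 to 68.1 CPM against 12.9 to 15.8 CPM. Most of this was *COL3A1*, with 55.2 to 59.4 CPM in CS16 and 5.73 to 7.15 CPM in CS19, and *LUM* was higher too. *PDGFRA* was lower in CS16, by -0.90 on the log2 scale, and *COL1A1* differed by -0.02. *PDGFRB* and *THY1* overlapped between the clones, and *DCN* and *COL1A2* were at the floor in both. The part of these marker differences in the *BMP2* result was not tested. By the adjusted p alone *BMP5* and *BMP7* were also higher in CS16 and *ID3* was lower, against 14.7% of all genes higher and 12.7% lower. *BMP5* differed by 1.35 ± 0.22 (adjusted p = 0.00047) and *ID3* by -0.49 ± 0.09 (adjusted p = 0.00076). *BMP7* differed by 0.24 ± 0.07 (adjusted p = 0.022). This call was lost with the replicate number as a block (adjusted p = 0.106), and without CS16-1, CS16-3, CS19-1 or CS19-3 (0.0806 to 0.0946). The shared fit of the 3 groups gave adjusted p-values of 0.542 for *BMP7* and 0.562 for *ID3*. For the other 6 genes the difference did not pass the test. Its values were 0.15 ± 0.15 for *BMP4*, 0.24 ± 0.11 for *BMPR1B* and 0.16 ± 0.08 for *SMAD6*. The ID genes gave -0.21 ± 0.11 for *ID1*, -0.11 ± 0.07 for *ID2* and 0.01 ± 0.07 for *ID4*. *SNAI1* itself was lower in CS16 than in CS19, by 0.92 ± 0.24 on the log2 scale (adjusted p = 0.011).

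**Figure D2:**
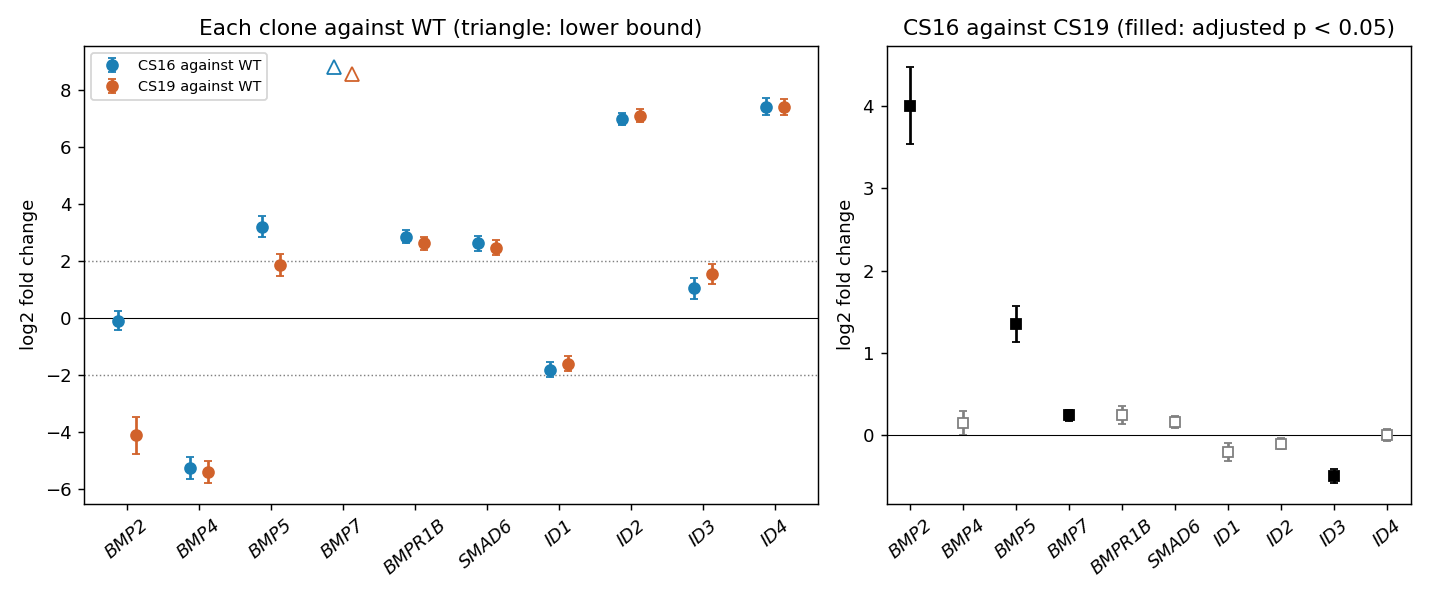
Log2 fold changes with standard errors for the 10 genes, for each clone against the shared WT libraries (left, dotted lines at 2 and -2) and for CS16 against CS19 (right, filled squares pass an adjusted p of 0.05). Triangles for *BMP7* are lower bounds, and *BMP2*, at -0.09 in CS16 and -4.11 in CS19, is the gene on which the clones lie farthest apart.

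The 10 genes were set among 71 genes of the BMP pathway, grouped by role, the 10 genes included. *SMAD6*, *SMAD7* and *SMAD9* were counted both among the SMADs and among the targets. Of 14 ligand genes 10 passed the filter on low counts. In the libraries labelled SNAI1-KO 6 were called higher and 2 lower, beside 12.6% and 14.3% of all genes. The log2 fold changes had a median of 2.78, against -0.004 over all genes tested. This median covers only the 10 genes that passed the filter. *BMP7* and *GDF6*, with 0 counts in WT, passed it through the clones. *BMP10*, with 5 to 16 counts in WT and 0 in the clones, did not pass. *GDF6* and *BMP10* are named here after their values were seen. Beside the genes above, *GDF7* rose by 5.13 ± 0.32 on the log2 scale (SE, adjusted p = 8.2e-08), *BMP6* by 3.42 ± 0.22 (adjusted p = 8.9e-08) and *BMP8A* by 2.92 ± 0.41 (adjusted p = 7.6e-05). *GDF5*, a ligand that signals through BMPR1B, fell by 5.54 ± 0.27 (adjusted p = 9.7e-09), from 8.70 to 12.2 CPM in WT to 0.120 to 0.287 CPM in the clones. The ligands thus moved in both directions.

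Among receptors and co-receptors, 10 of 12 were tested, and 3 were called higher and 1 lower, with a median of 0.24, beside 12.6% and 14.3% of all genes called higher and lower. *BMPR1A*, the other main type I receptor for BMPs, had a log2 fold change of -0.29 ± 0.21 (SE, adjusted p = 0.24). *ACVR1*, a type I receptor for BMP7, fell by 0.77 ± 0.18 (adjusted p = 0.0028). The 3 type II receptor genes moved in both directions. *BMPR2* fell by 1.09 ± 0.15 (adjusted p = 5.5e-05). *ACVR2B* and *ACVR2A*, named here after their values were seen, rose by 1.93 ± 0.14 (adjusted p = 3.1e-07) and 0.76 ± 0.21 (adjusted p = 0.0073), below the fold-change limit. *ACVR2B* had 26.0 to 34.6 CPM in WT and 107 to 126 CPM in the clones. The co-receptor *RGMA* rose by 3.90 ± 0.52 and its receptor *NEO1* by 2.32 ± 0.18 (adjusted p = 4.3e-05 and 5.1e-07), while *RGMB*, the paralog of *RGMA*, fell by 2.56 ± 0.20 (adjusted p = 4.7e-07).

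Of 8 genes for SMADs and the ubiquitin ligases that act on them, all tested, 3 were called higher and 1 lower, with a median of 0.21. The shares over all genes were 12.6% called higher and 14.3% called lower. *SMAD1* had 3.38 to 6.74 CPM in WT and 20.8 to 25.4 CPM in the clones, and rose by 2.07 ± 0.22 on the log2 scale (SE, adjusted p = 8.1e-06). *SMAD9* went from 1.83 to 2.23 CPM in WT to 35.5 to 36.8 CPM in CS16 and 27.9 to 30.6 CPM in CS19, and rose by 4.03 ± 0.19 (adjusted p = 1.0e-08). *SMAD5*, which carries the same signal, had a value of 0.22 ± 0.28 (adjusted p = 0.51), and in WT-2 it was at 69.4 CPM against 176 and 171 CPM in the other WT libraries. *SMURF2*, a ubiquitin ligase that targets SMADs and receptors, fell by 2.75 ± 0.17 (adjusted p = 6.0e-08).

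Of 22 extracellular antagonists and modulators 17 were tested, with 4 calls upward, 7 downward and a median of -0.96, beside the same 12.6% and 14.3% of all genes. *FST* (follistatin) fell by 6.33 ± 0.36 on the log2 scale (SE, adjusted p = 3.5e-08), *CRIM1* by 3.32 ± 0.11 (adjusted p = 8.8e-10), *FSTL3* by 3.21 ± 0.18 (adjusted p = 4.1e-08) and *BMP1*, a protease that cleaves the antagonist chordin, by 2.46 ± 0.19 (adjusted p = 4.6e-07). *NOG* (noggin), the best known of these antagonists and named here after its values were seen, had 31.3 to 55.9 CPM in WT, 5.58 to 5.97 CPM in CS16 and 2.09 to 2.43 CPM in CS19, and fell by 3.39 ± 0.36 (adjusted p = 7.5e-06). In the other direction, with WT at the floor, the antagonist *CHRD* (chordin) was at least 25.1-fold higher, *SOSTDC1* at least 29.9-fold and the protease gene *TLL1* at least 15.04-fold.

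All 15 target genes were tested, with 9 calls upward, 2 downward and a median of 4.03. Of all genes, 12.6% were called higher and 14.3% lower. The upward calls include *ID2*, *ID4* and *SMAD6*, given above. *HEY1*, a repressor that also responds to Notch, had 0.229 to 0.692 CPM in WT and 213 to 270 CPM in the clones and rose by 8.97 ± 0.30 on the log2 scale (SE, adjusted p = 9.5e-10). *TBX3*, a T-box repressor needed for mammary development, had no WT library above the floor and was at least 318-fold higher in the clones. *RUNX2*, the master regulator of bone formation, fell by 4.54 ± 0.23 (adjusted p = 1.8e-08) and *ATOH8* fell by 3.75 ± 0.27 (adjusted p = 2.7e-07). The medians of the roles were the same with genes at the floor set to their bounds. The target list thus held falling genes too, and *ID1* fell without reaching the fold-change limit.

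**Figure D3:**
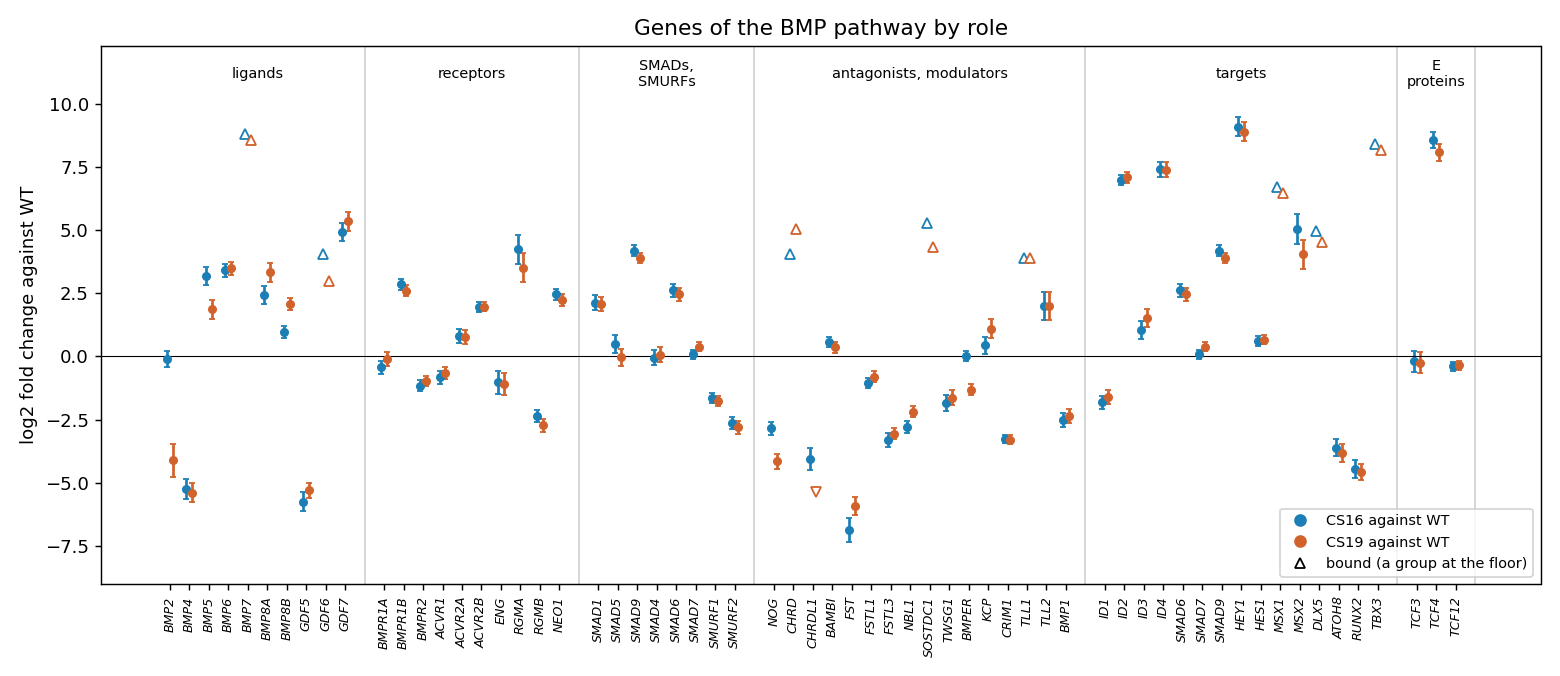
Log2 fold changes with standard errors of the BMP pathway genes that were tested in both clones, grouped by role, for CS16 and CS19 against the shared WT libraries. Triangles are bounds for genes with a group at the floor. Ligands and targets hold genes on both sides of 0, and *BMPR1B*, *SMAD1*, *SMAD9* and *SMAD6* lie above 0 in both clones.

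The E proteins, the partners of ID proteins, were 3 genes, of which 1 was called higher, beside 12.6% of all genes. *TCF4* had 0.114 to 0.297 CPM in WT, 79.7 to 82.3 CPM in CS16 and 54.1 to 58.5 CPM in CS19, and rose by 8.32 ± 0.34 on the log2 scale (SE, adjusted p = 2.9e-09). *TCF12* fell by 0.41 ± 0.14 (adjusted p = 0.020), and *TCF3* had a value of -0.25 ± 0.29 (adjusted p = 0.47), with WT-2 at 195 CPM against 66.2 and 73.7 CPM in the other WT libraries. CS16 was above CS19 in *TCF4* by 0.50 ± 0.06 (adjusted p = 6.8e-05), in *HEY1* by 0.21 ± 0.06 (adjusted p = 0.028), in *TBX3* by 0.24 ± 0.08 (adjusted p = 0.032) and in *SMAD9* by 0.29 ± 0.07 (adjusted p = 0.010).

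The genes whose profiles were nearest to each of the 10 were found among the 19631 genes tested by the root mean square distance of centred log2 CPM over the 9 libraries, a description in which the contrast of clones with WT dominates. For *ID2* they were *RAB39B* (distance 0.108), *HMX1* (0.124) and *ELOVL2* (0.127), and for *ID4* they were *SLCO5A1* (0.161), *H3C6* (0.209) and *NAP1L2* (0.215). *ID1* lay nearest to *FAM131A* (0.111), *PHC2* (0.123) and *RAB34* (0.125), and *ID3* to *FOXD4* (0.207), *PEX11G* (0.208) and *CACNB3* (0.208). Among ligands, *BMP4* lay nearest to *TRERF1* (0.179), *LINC02783* (0.182) and *EPHA2* (0.190), and *BMP7* to *NUDT11* (0.0744), *PRKCB* (0.130) and *CDKN2A* (0.140), the last of which is 1 of the 3 genes of chromosome 9p without a count in WT. *BMP5* had *SLC1A3* (0.179), *HEATR1* (0.222) and *CA3-AS1* (0.250). *BMP2* had no close match, with *ZNF804A* (0.652), *HSPB8* (0.722) and *SHROOM4* (0.741). *BMPR1B* had *TAF4B* (0.118), *C10orf95-AS1* (0.128) and *TRMT12* (0.131), and *SMAD6* had *RHOB* (0.104), *CRACD* (0.131) and *DLL1* (0.144).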

How the data were processed

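The authors extracted total RNA, depleted ribosomal RNA and made stranded libraries. Per the labels and the study's methods, reads were trimmed with Trimmomatic 0.36, aligned to GRCh38.p13 with STAR 2.7.2b and counted with featureCounts (Subread 2.0.0) on gencode release 38, for pairs with a mapping quality of at least 30 and without the strand option. The deposited values were raw counts per gene and library, neither normalized nor pooled. Copies made in amplification could not be removed, and intervals were not computed from counts.

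Libraries were grouped by their labels. Counts were tested in R 4.3.3 with edgeR 4.0.16 (filterByExpr, TMM, quasi-likelihood test, Benjamini-Hochberg adjustment over all genes tested). The fits compared SNAI1-KO (6 libraries) with WT (3), each clone with WT, and CS16 with CS19. Each SE of a log2 fold change, in the text and figures, is its absolute value divided by the square root of the F statistic. It is thus derived from the test and is approximate, above all where a group has few counts. Genes were called at an absolute log2 fold change of 2 or more with an adjusted p below 0.05. TPM used the exon length given with the counts, scaled to 1000000 per library. Folds against a group at the floor used 3 counts in each library of that group. Named genes were the 10 genes, up to 4 genes per pathway role and direction with the smallest adjusted p among those called in SNAI1-KO against WT, *SMAD1*, *SMAD5*, *SMAD9*, *BMPR1A*, *BMPR2*, *ACVR1*, *TCF3*, *TCF4*, *TCF12*, *SNAI1*, *CDKN2A*, *CDKN2B*, *MTAP*, and the 3 nearest profiles of each of the 10 genes (prior count 2). The members, the pathway and marker lists and the rule for naming genes were chosen with earlier results of these data known. Alternatives were DESeq2 1.42.0, RLE normalization, no filter, a filter of 10 counts in 3 libraries, leaving out the 100 most abundant genes, a block for the replicate number, the 3 groups in a shared fit, other cut-offs and leaving out each library. On simulated data with 200 genes changed by a log2 fold of 3, edgeR recovered 200 with 0 false calls among 18476 genes for SNAI1-KO against WT. The simulation gave every gene the same dispersion, with no outlying library and no difference between clones. It checks the code and does not gauge false calls in these data. Tables and plots were made in Python 3.11.15 with pandas 2.3.3 and matplotlib 3.10.9. Promoter sequences came from RefSeq on GRCh38.p14. Reads, protein sequences and the study's other assays were not analysed here. A gene that the naming rule selects is not reported here.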

Additional observations from a re-analysis of the deposited data

Results flagged for a closer look

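In edgeR's quasi-likelihood test of CS16 against CS19 (3 libraries each), 4 of the 10 genes passed an adjusted p of 0.05, as did 27.4% of all 17538 genes tested. *BMP2* was higher in CS16 by 4.0045 on the log2 scale, with all 3 CS16 libraries above all 3 CS19 libraries. *BMP5* was higher in CS16 by 1.35 and *BMP7* by 0.24, again without overlap between the clones. *ID3* was lower in CS16, with a difference of -0.49, and its 3 CS16 libraries were below all 3 CS19 libraries. In a shared fit of the 3 groups *BMP7* and *ID3* did not pass (adjusted p = 0.542 and 0.562), and *BMP7* did not pass with a block for the replicate number (adjusted p = 0.106). Each clone comes from a single cell, so a difference between them cannot be told apart from variation between clones in general. The test for a lone extreme library needs 4 or more libraries, so it covered the 6 SNAI1-KO libraries as a group and marked none of the 10 genes. Where the clones differ, as for *BMP2*, it can miss an extreme library within a clone. WT, where WT-2 stood apart, was not covered.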

How the results depend on the processing

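Depth limits *BMP7* in WT, with 0 counts in every library and so only a bound on its fold, and *BMP2* in CS19 and *BMP5*, *ID2* and *ID4* in WT, with at most 7, 8, 19 and 15 counts in any library. Of 550 log2 fold changes of the 10 genes under the alternatives, 532 kept their direction and their side of the adjusted p of 0.05. Reversals were seen for values near 0. *BMP2* in CS16 against WT ranged from -0.30 to 0.059 when 1 library was left out, with 0.04 without WT-1, 0.01 without CS16-2 and 0.059 without CS16-3, and *ID4* in CS16 against CS19 ranged from -0.0664 without CS16-2 to 0.0614, with -0.01 without CS19-1. The cause was not tested. The number of the 10 genes called in CS16 against CS19, 1 as reported, was 4 without a fold-change cut-off and 2 with a log2 fold change of at least 1. Over all genes, calls in SNAI1-KO against WT went from 5272 to 8662 without the filter, 12506 without a fold-change cut-off and 9251 with that cut-off lowered to 1. For CS16 against WT they went from 5045 to 10342 and 8567 with the last pair of settings, for CS19 against WT from 4990 to 7513, 10014 and 8309, and for CS16 against CS19 from 198 to 352, 4814 and 833. Replicate numbers did not pair the libraries. Same-numbered libraries had correlations of their deviations from -0.21 to 0.19, 1 of 9 above 0.1, and a library was closest to its own number in 4 of 18 cases. With the replicate number as a block, 7 of the 10 genes were called in each comparison with WT and 1 in CS16 against CS19, and *BMP7* in the latter had an adjusted p of 0.106. The share of all genes under the block is not given here. Without the block, 26.9% of all genes were called in SNAI1-KO against WT, 27.1% in CS16 against WT and 26.4% in CS19 against WT. That share was 1.13% in CS16 against CS19.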
